A study of Mus musculus with 8 samples.

Results

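The Notch receptors, ligands and targets examined here were 10 genes: the receptors Notch1, Notch2, Notch3 and Notch4, the ligands Jag1, Jag2 and Dll1, and the targets Hes1, Hey1 and Heyl. They were taken by gene name from a count table of 31894 genes, and all 10 had an entry. The table held 8 bulk mRNA libraries of tumor cells sorted from breast cancer brain metastases (BCBM), with 1 E-cadHI and 1 E-cadLO library from each of 4 mice, numbered 57, 58, 67 and 70. E-cadLO was compared with E-cadHI within each mouse. The labels gave FVB as the strain, wild type as the genotype, breast cancer as the disease and brain metastasis as the tissue for every library, so that the labels set the groups apart by E-cadherin status alone. No label gave an age, a sex or a treatment, and the study's methods describe the recipients as adult female mice.

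According to the study's methods, the tumor cells descended from mammary carcinomas of PyMT E-cad-mCFP mice, in which the mouse mammary tumor virus promoter drives an oncogene in mammary epithelium and a cyan fluorescent protein (CFP) is fused to E-cadherin. They had been passed through the brain by serial transplantation, cultured as organoids, marked with H2B-Dendra2 in the nucleus and injected intracranially, so that all libraries came from transplanted tumor cells and none arose by spread from a mammary tumor. The CFP-positive gate gave the E-cadHI cells and the CFP-negative gate the E-cadLO cells, and purity had been checked on CFP-positive cells only. Libraries held between 9102781 and 15769200 counts, and a floor of 3 counts stood at 0.19 to 0.33 CPM, the counts of a gene scaled to a common library total. Cdh1, the gene of E-cadherin, was at 114, 132, 93.5 and 108 CPM in E-cadHI of mice 57, 58, 67 and 70 and at 71.6, 181, 84.5 and 59.2 CPM in E-cadLO. It was lower in E-cadLO in 3 of 4 mice, and the library labelled E-cadLO of mouse 58 went the other way. The log2 fold change of Cdh1 was -0.17 (edgeR, adjusted p = 0.809). With the mouse as a block it was -0.31 with an SE of 0.23 (edgeR, adjusted p = 0.482), so Cdh1 did not pass in either fit. The gate read the fluorescent protein and not the transcript, and log2 fold changes without mouse 58 are given beside those of the 9 tested genes.

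Notch receptors are membrane proteins that are cut when they bind a ligand of the Jagged or Delta-like families on a neighboring cell. The freed intracellular domain enters the nucleus, joins the DNA-binding protein RBPJ and a Mastermind coactivator, and switches on genes such as Hes1 and Hey1, which encode basic helix-loop-helix repressors. The pathway takes part in fate decisions in the mammary gland and has been linked to epithelial-to-mesenchymal transition (EMT). In the brain it is used by neural stem cells, astrocytes, endothelium and the mural cells around vessels, so that bulk libraries of sorted cells may carry its transcripts from more than 1 cell type.

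Levels below are CPM after trimmed mean of M values (TMM) scaling, and differences are log2 ratios of E-cadLO to E-cadHI. Of the 10 genes, 9 passed the filter on low counts, and Heyl did not. The libraries of 1 mouse deviated together from their group means, so each test is given from edgeR's quasi-likelihood fit without and with the mouse as a block, with Benjamini-Hochberg adjustment over 13598 genes. None of the 9 passed the adjusted threshold of 0.05 in either fit. The background was 0% of all genes called without the block. With the block 0.728% of genes were called higher in E-cadLO (99 genes) and 0% lower. At an unadjusted p under 0.05 without the block there were 1899 genes, of which 1 was among the 9, and with the block there were 2668 genes, again with 1 of the 9. That gene was Jag1 in both fits. DESeq2, the tool the study's methods name for differential expression, called Jag1 higher without the block, where it called 2.19% of all genes higher, and with the block, where it called 7.57% higher. The median log2 fold change of the 9 genes was 0.19 without the block and 0.06 with it, against 0.06 and 0.03 over all genes tested.

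**Figure D1:**
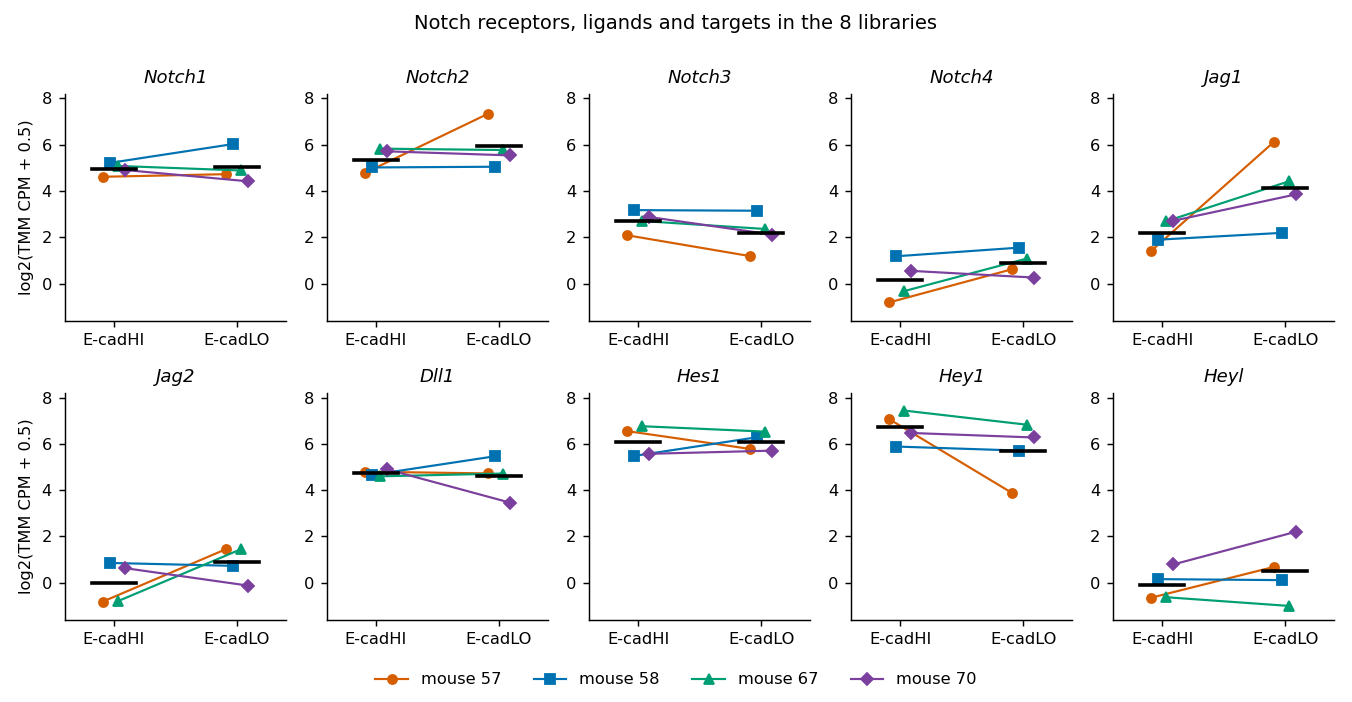
Each panel plots 1 gene as log2(CPM + 0.5) in E-cadHI and E-cadLO, with a line joining the libraries of each of the 4 mice and a black bar at the mean of the group. The Jag1 lines all slope upward and the Hey1 lines all slope downward, both most steeply in mouse 57, while Notch2 departs from a flat line in mouse 57 alone.

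Jag1, a ligand that is anchored in the membrane of the sending cell, had the largest difference of the 10 genes. Its level was 2.16, 3.23, 5.95 and 6.06 CPM in E-cadHI of mice 57, 58, 67 and 70, and 69.5, 4.07, 20.9 and 14.0 CPM in E-cadLO. E-cadLO was higher in 4 of 4 mice, as were 16.8% of all genes tested, and the groups overlapped through the E-cadLO library of mouse 58, which lay below E-cadHI of mice 67 and 70. The ratio within a mouse, on CPM plus 0.5, was 26.3-fold in mouse 57, 1.23-fold in mouse 58, 3.33-fold in mouse 67 and 2.21-fold in mouse 70. On 42 counts in E-cadHI and 35 in E-cadLO, the difference in mouse 58 was within counting error, with an exact 95% interval of the log2 ratio from -0.35 to 1.02. The interval lay above 0 in the other mice, from 0.80 to 1.62 in mouse 70 and from 1.46 to 2.19 in mouse 67. Such intervals cover counting error only, since reads copied by PCR are not separate molecules.

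The log2 fold change of Jag1 was 2.64 ± 0.77 (SE) without the block, with an unadjusted p of 0.00711 and an adjusted p of 0.282 in edgeR's quasi-likelihood test. With the block it was 1.98 ± 0.72, an adjusted p of 0.208. DESeq2 gave 2.69 with an adjusted p of 0.00984, and 1.97 with an adjusted p of 0.0201 when the mouse was a block. Over the main fit and its 15 alternatives the adjusted p of Jag1 ran from 0.00984 to 0.681 and its log2 fold change from 1.14 to 3.09. Mouse 57 set much of the size: without it the log2 fold change was 1.34 (edgeR, adjusted p = 0.681) and, with the block, 1.14 (edgeR, adjusted p = 0.163). Without mouse 58 the values were 2.92 (edgeR, adjusted p = 0.306) and 2.56 (edgeR, adjusted p = 0.173). The exact sign-flip test over the 4 mice gave a two-sided p of 0.13, the smallest that 4 mice allow. It gave the same p for Notch3 and Hey1, and larger values for the other 7 genes.

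The other main ligand, Dll1, stayed at one level in E-cadHI, with 27.3, 24.8, 23.7 and 29.3 CPM in mice 57, 58, 67 and 70. In E-cadLO it was at 25.9, 43.7, 25.8 and 10.5 CPM. The E-cadLO library of mouse 58 lay above, and that of mouse 70 below, every E-cadHI library, and the other two lay inside their range. The SD was 2.51 CPM in E-cadHI and 13.6 CPM in E-cadLO (n = 4 each), around means of 26.3 and 26.5 CPM. Its log2 fold change was 0.01 ± 0.36 without the block and -0.13 ± 0.36 with it (edgeR, adjusted p = 0.991 and 0.857). Without mouse 58 it was -0.35 and, with the block, -0.45 (edgeR, adjusted p = 0.650 and 0.527). Dll1 shares 867 exonic bases, 20.5% of its exons, with A930024N18Rik, a noncoding RNA gene on the opposite strand, which had at most 8 counts in a library. Whether the counting used strand was not stated.

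The remaining ligand, Jag2, lay near the floor in E-cadHI of mice 57 and 67, with 1 count each. Its level was 0.0697, 1.31, 0.0743 and 1.05 CPM in E-cadHI and 2.23, 1.16, 2.22 and 0.419 CPM in E-cadLO of mice 57, 58, 67 and 70. E-cadLO exceeded E-cadHI in mice 57 and 67 and was below it in mice 58 and 70. With 30 counts against 1, the exact interval of the log2 ratio in mouse 57 ran from 2.41 to 10.35. In mouse 67, with 33 counts against 1, it ran from 2.32 to 10.25. For Jag2 the log2 fold change was 1.27 ± 0.97 without the block and 1.61 ± 1.25 with it (edgeR, adjusted p = 0.534 and 0.489). The size depended on single mice: it was 0.64 without mouse 57, 0.70 without mouse 67, 2.07 without mouse 58 and 1.97 without mouse 70, and with the block it ran from 0.62 to 2.89 over the same 4 omissions.

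Divided by exonic length, the Jag1 share of the ligand transcripts was larger in E-cadLO in 3 of 4 mice, and the difference in share was not tested. Jag1 was 5.42, 8.36, 15.3 and 12.8% of the summed CPM per kb of the 3 ligands in E-cadHI of mice 57, 58, 67 and 70. In E-cadLO its share was 64.9, 6.22, 35.8 and 48.5%. It was the larger of the pair in E-cadLO of mouse 57 only, close to Dll1 in mouse 70 (50.3%), and smaller in E-cadLO than in E-cadHI in mouse 58. Dll1 made up 84.5 to 94.4% of the ligand sum in every E-cadHI library. The summed ligand level was 6.62 to 8.14 CPM per kb in E-cadHI and 4.94 to 18.4 in E-cadLO, so the totals overlapped.

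**Figure D2:**
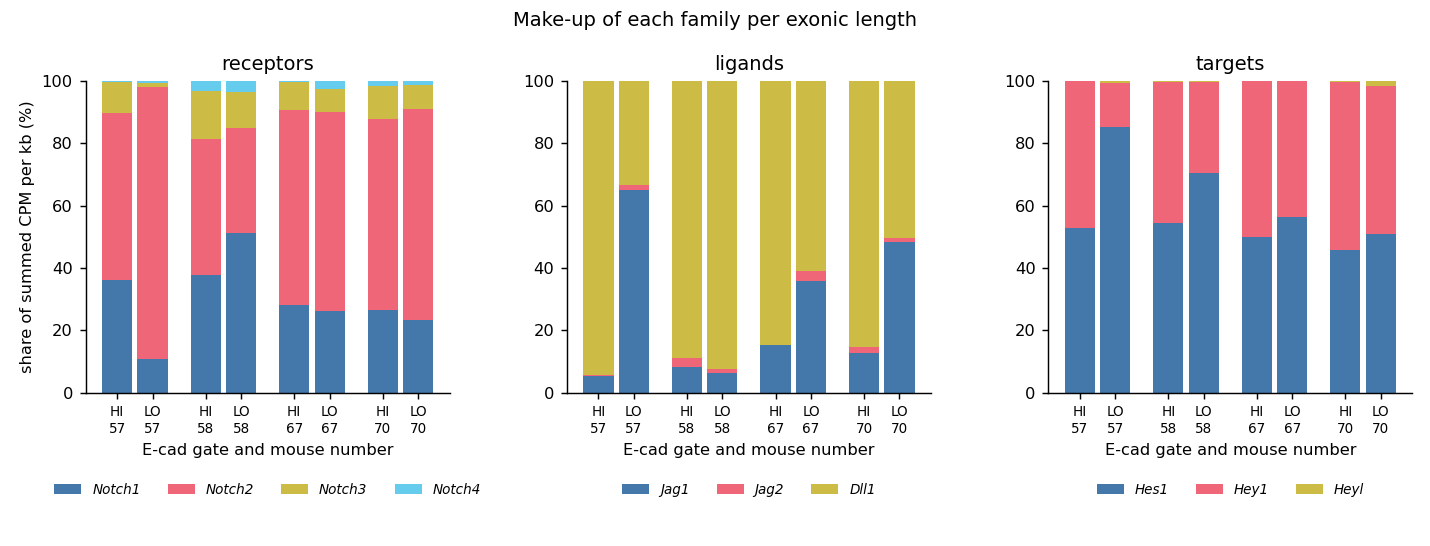
Stacked bars give the share of each gene in the summed CPM per kb of its family, in percent, for the E-cadHI (HI) and E-cadLO (LO) library of each mouse. The Jag1 share of the ligands is 15.3% or less in E-cadHI and reaches 64.9% in E-cadLO of mouse 57, and the Hey1 share of the targets is smaller in E-cadLO than in E-cadHI in each mouse.

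The sequence upstream of Jag1 is shown because Jag1 had the largest difference, that of Dll1 because it is the ligand that dominated E-cadHI, and that of Notch2 because its level moved with Jag1 in mouse 57. The windows come from RefSeq promoters on GRCm38.p6, which held 8 windows for 7 of the 10 genes, 2 of them for Dll1; Hes1, Hey1 and Heyl were not matched. Each window of 250 bases before a RefSeq start was searched on both strands for TGGGAA, the core bound by RBPJ, and for CAGGTG, an E2-box of the kind that Snail and Zeb repressors bind in EMT. The RBPJ core was in 0 of the 8 windows, against 21.6% of 32851 RefSeq windows of the same length. The E2-box was in 1 of the 8, upstream of Dll1, against 17.2% of the 32851. Its first base lies 155 bases before the start, and it is in capitals. The absence of these letters from a window says nothing about binding elsewhere. Bases that lie inside the gene in the count table were left off, and each line reads 5′ to 3′ on the strand of the gene.
Jag1, chr2:137116645-137116770, minus strand: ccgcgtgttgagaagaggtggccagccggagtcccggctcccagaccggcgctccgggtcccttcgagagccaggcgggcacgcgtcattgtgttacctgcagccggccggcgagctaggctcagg
Dll1, chr17:15376933-15377182, minus strand: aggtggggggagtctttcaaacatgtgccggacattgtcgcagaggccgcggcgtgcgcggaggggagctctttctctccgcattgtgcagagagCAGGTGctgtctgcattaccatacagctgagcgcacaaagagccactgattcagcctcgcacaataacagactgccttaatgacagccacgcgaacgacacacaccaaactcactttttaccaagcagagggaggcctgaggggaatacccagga
Notch2, chr3:98013288-98013526, plus strand: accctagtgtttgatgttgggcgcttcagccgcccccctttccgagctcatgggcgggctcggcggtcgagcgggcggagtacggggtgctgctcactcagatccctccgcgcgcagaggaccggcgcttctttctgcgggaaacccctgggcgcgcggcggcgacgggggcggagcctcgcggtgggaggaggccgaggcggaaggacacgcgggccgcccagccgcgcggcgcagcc

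Among the receptors, Notch2 had the highest level per length in both groups. It was at 27.0, 31.9, 56.4 and 52.0 CPM in E-cadHI of mice 57, 58, 67 and 70 and at 161, 32.6, 54.1 and 46.0 CPM in E-cadLO. Mouse 57 was 5.86-fold higher in E-cadLO, and in the other 3 mice the libraries differed by 1.13-fold or less, in either direction. The log2 fold change of 0.81 ± 0.49 without the block and 0.53 ± 0.46 with it (edgeR, adjusted p = 0.454 and 0.531) rested on mouse 57. Without that mouse it was -0.10 (edgeR, adjusted p = 0.937) and, with the block, -0.09 (edgeR, adjusted p = 0.835). Without mouse 58 the values were 0.98 and 0.74 (edgeR, adjusted p = 0.425 and 0.490). Notch2 shares 5.02% of its exonic bases with a gene model on the same strand.

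Notch1, the receptor best known in mammary tumors and T cell leukemia, was at 24.0, 36.7, 33.4 and 29.5 CPM in E-cadHI and at 26.0, 64.8, 29.1 and 20.9 CPM in E-cadLO. E-cadLO exceeded E-cadHI in mice 57 and 58 and was below it in mice 67 and 70. Mouse 58 gave the highest and mouse 70 the lowest E-cadLO library, and the other two lay inside the E-cadHI range. Its log2 fold change was 0.19 ± 0.35 without the block and 0.06 ± 0.25 with it (edgeR, adjusted p = 0.806 and 0.910). Leaving out mouse 58 turned the sign, to -0.18 in both fits (edgeR, adjusted p = 0.720 and 0.724).

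Notch3, which in the brain is typical of mural cells, was lower in E-cadLO in 4 of 4 mice, as were 14.2% of all genes tested. Its level was 3.76, 8.53, 6.02 and 6.85 CPM in E-cadHI and 1.78, 8.37, 4.64 and 3.84 CPM in E-cadLO of mice 57, 58, 67 and 70. In mouse 58 the difference was within counting error, with an interval of the log2 ratio from -0.47 to 0.41, and so it was in mouse 67, from -0.86 to 0.11. Notch3 had a log2 fold change of -0.44 ± 0.51 without the block and -0.57 ± 0.38 with it (edgeR, adjusted p = 0.679 and 0.426), and the groups overlapped. Without mouse 58 the values were -0.68 and -0.74 (edgeR, adjusted p = 0.546 and 0.446). The summed level of 10 mural cell markers was higher in E-cadLO in 3 of 4 mice, at 23.6 to 87.5 CPM in E-cadHI and 25.0 to 201 CPM in E-cadLO. Different genes carried that sum. Abcc9, a potassium channel subunit, gave most of it in E-cadHI of mice 57, 58 and 67, at 19.6, 20.7 and 23.6 CPM. It was lower in E-cadLO in 4 of 4 mice. In the same E-cadHI libraries Pdgfrb was at 0, 0.538 and 0.446 CPM and Rgs5, the most abundant marker of the list, at 0.976, 6.61 and 2.60 CPM. Pdgfrb was higher in E-cadLO in 4 of 4 mice and Rgs5 in 3 of 4. The E-cadLO library of mouse 57 held mostly Pdgfrb, at 147 CPM. Which cells gave the Abcc9 RNA was not tested. Of the 7 mural markers tested, 2 were higher and 1 lower in E-cadLO in 4 of 4 mice, against 16.8 and 14.2% of all genes tested. None of the 7 passed the test, and their part in the Notch3 value was not tested.

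Notch4, the receptor of endothelium, had between 1 and 24 counts in a library. It was at 0.0697, 1.77, 0.297 and 0.966 CPM in E-cadHI and at 1.04, 2.44, 1.62 and 0.699 CPM in E-cadLO. E-cadLO was higher in 3 of 4 mice, and the groups overlapped. On 1 count against 14, the interval of the log2 ratio in mouse 57 ran from 1.18 to 9.30. Notch4 had a log2 fold change of 0.89 ± 0.86 without the block and 1.29 ± 0.81 with it (edgeR, adjusted p = 0.615 and 0.396). It was 1.36 and 1.70 without mouse 58 (edgeR, adjusted p = 0.510 and 0.407), and without mouse 57 it was 0.62 and 0.72. The summed level of 12 endothelial markers was higher in E-cadLO in 4 of 4 mice, at 42.3 to 78.7 CPM in E-cadHI and 62.6 to 116 CPM in E-cadLO. Flt1 gave most of that sum, at 39.0 to 71.7 CPM in E-cadHI and 34.0 to 82.7 CPM in E-cadLO, and was lower in E-cadLO in mouse 57. Of the 12 markers, 8 were tested and none passed. Of the 8, 5 were higher in 4 of 4 mice, against 16.8% of all genes tested. The part of these markers in the Notch4 value was not tested.

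Per length, Notch2 was 43.5 to 62.6% of the summed receptor transcripts in E-cadHI and Notch1 was 26.4 to 37.8%. In E-cadLO of mouse 57 Notch2 reached 87.3%, and in E-cadLO of mouse 58 Notch1 exceeded it, at 51.1 against 33.9%. Notch3 stayed at 15.5% or less and Notch4 at 3.40% or less in every library.

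Of the targets, Hey1 had the largest difference. It was at 134, 58.5, 173 and 88.1 CPM in E-cadHI of mice 57, 58, 67 and 70 and at 14.2, 51.8, 113 and 76.9 CPM in E-cadLO. E-cadLO was lower in 4 of 4 mice, by 9.17-fold in mouse 57, 1.52-fold in mouse 67, 1.14-fold in mouse 70 and 1.13-fold in mouse 58. The upper bound of the counting interval stayed below 0 in each mouse and came closest in mouse 58, at -0.01 on the log2 scale. The groups overlapped, since E-cadLO of mouse 67 was above E-cadHI of mice 58 and 70.

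The log2 fold change of Hey1 was -0.82 ± 0.55 without the block and -0.97 ± 0.50 with it (edgeR, adjusted p = 0.488 and 0.314). Without mouse 57 it was -0.43 (edgeR, adjusted p = 0.797) and -0.35 with the block (edgeR, adjusted p = 0.310). Without mouse 58 it was -0.95 (edgeR, adjusted p = 0.507) and -1.26 with the block (edgeR, adjusted p = 0.283). The sign was negative in the main fit and in all 15 alternatives, between -1.26 and -0.35, and in none of them did the adjusted p fall below 0.161.

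Hes1, the other abundant target, had no common direction. Its level was 93.3, 44.1, 108 and 47.0 CPM in E-cadHI and 54.5, 77.6, 91.8 and 51.7 CPM in E-cadLO. E-cadLO was 1.70-fold lower in mouse 57 and 1.18-fold lower in mouse 67, and 1.75-fold higher in mouse 58 and 1.10-fold higher in mouse 70. All 4 E-cadLO libraries lay inside the E-cadHI range, and the log2 fold change was -0.09 ± 0.33 without the block and -0.02 ± 0.26 with it (edgeR, adjusted p = 0.913 and 0.975). Without mouse 58 it was -0.32 and -0.28 (edgeR, adjusted p = 0.670 and 0.531).

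Per length, Hey1 was 47.3, 45.1, 49.9 and 53.7% of the summed targets in E-cadHI of mice 57, 58, 67 and 70, and 13.9, 29.3, 43.5 and 47.4% in E-cadLO. The share was smaller in E-cadLO in each of the 4 mice, most so in mouse 57, and E-cadLO of mouse 70 stood within the E-cadHI range. The difference in share was not tested. These shares do not depend on the scaling between libraries.

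Heyl, a target that mural cells express, did not pass the filter. It was at 0.139, 0.615, 0.149 and 1.23 CPM in E-cadHI and at 1.11, 0.582, 0 and 4.12 CPM in E-cadLO, on 0 to 59 counts a library. In E-cadLO of mouse 67 no read was counted, which allows a level of up to 0.21 CPM. The highest library, E-cadLO of mouse 70, also had the highest summed level of mural cell markers, 201 CPM, and their part in the Heyl value was not tested.

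Compared per exonic length within E-cadHI, the order of mean levels was Hes1 (35.9 CPM per kb), Hey1 (34.7), Dll1 (6.23), Notch2 (3.88), Notch1 (2.17), Notch3 (0.778), Jag1 (0.746), Heyl (0.104), Notch4 (0.0961) and Jag2 (0.0899). Neighbors in this order whose ranges over the 4 libraries did not meet were Hey1 and Dll1, Dll1 and Notch2, Notch1 and Notch3, and Jag1 and Heyl, and the ranges of all other neighbors overlapped. In E-cadLO the mean of Jag1, 4.66 CPM per kb, stood above that of Notch1 (2.47), and the mean of Notch2, 6.80, above that of Dll1 (6.28). There, Notch1 and Notch3 (0.576) were the only neighbors with separate ranges. The SD over the 4 libraries was larger in E-cadLO than in E-cadHI for Notch1, Notch2, Notch3, Jag1, Jag2, Dll1 and Heyl. It was smaller in E-cadLO for Hes1, at 19.2 against 32.4 CPM, and for Hey1, at 41.8 against 50.4 CPM, and it was 0.763 CPM in both groups for Notch4.

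Beyond the 10 genes, 46 further genes of the pathway were examined by role, of which 39 were tested. None passed without the block, 1 rose with the block, where 0.728% of all genes did, and none fell. Their median log2 fold change was 0.14 without the block and 0.08 with it. Of the 39, 7 were higher in E-cadLO in 4 of 4 mice and 6 were lower, against 16.8 and 14.2% of all genes.

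The gene that rose was Bhlhe40, a basic helix-loop-helix repressor related to the Hes and Hey proteins that is also known as a gene of the hypoxia response and the circadian clock. It was counted with the other targets because the chosen list placed it there. Whether Notch acts on it in these cells was not tested. It was at 115, 95.4, 116 and 86.8 CPM in E-cadHI of mice 57, 58, 67 and 70 and at 234, 243, 272 and 162 CPM in E-cadLO. Every E-cadLO library was above every E-cadHI library, and the log2 fold change with the block was 1.12 ± 0.15 (edgeR, adjusted p = 0.0311), a 2.18-fold rise. Without the block it was 1.14 ± 0.19 (edgeR, adjusted p = 0.186), and DESeq2 gave an adjusted p of 3.58e-05. With the block and 1 mouse left out, the adjusted p of edgeR's test was 0.00632 without mouse 57, 0.0834 without mouse 58, 0.293 without mouse 67 and 0.136 without mouse 70, while the log2 fold change stayed between 1.06 and 1.21.

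Of the other targets, Hes5, a repressor of neural progenitors and astrocytes, was at 0, 0.768, 0 and 5.62 CPM in E-cadHI and at 0.223, 2.56, 0.404 and 10.7 CPM in E-cadLO. Its log2 fold change with the block was 1.92 ± 0.77 (edgeR, adjusted p = 0.234). Mouse 70 was highest in both gates, as it was for the summed level of 8 astrocyte markers. That sum ran from 1146 to 3556 CPM in E-cadHI and from 723 to 9882 CPM in E-cadLO. Aldoc gave most of it in every E-cadHI library, at 1005, 689, 1026 and 2233 CPM in mice 57, 58, 67 and 70. Gfap, another of the 8, ran from 2.09 to 339 CPM in E-cadHI and from 8.99 to 1333 CPM in E-cadLO. Gfap was also highest in mouse 70. The part of astrocytes in the Hes5 value was not tested.

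Among the 8 genes of receptor cleavage, all tested, 2 were lower in E-cadLO in 4 of 4 mice, against 14.2% of all genes tested. None of the 8 passed. Ncstn, the gamma-secretase subunit nicastrin, was at 256, 186, 274 and 166 CPM in E-cadHI and at 161, 172, 177 and 125 CPM in E-cadLO, with a log2 fold change of -0.46 ± 0.16 with the block (edgeR, adjusted p = 0.204). Of the 6 genes of receptor maturation and glycosylation, 5 were tested. Rfng, a fucose-modifying glycosyltransferase, was lower in 4 of 4 mice at -0.48 ± 0.19 (edgeR with the block, adjusted p = 0.225), and Lfng, of the same family, was near the floor at 0.348 to 2.52 CPM, with a log2 fold change of 0.73 ± 0.61 (edgeR with the block, adjusted p = 0.519).

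The 10 genes of the nuclear complex and its corepressors were all tested, with 1 higher and 2 lower in 4 of 4 mice. The shares over all genes tested were 16.8% higher and 14.2% lower. Maml2, a Mastermind coactivator, was at 36.2, 28.6, 72.8 and 49.5 CPM in E-cadHI and at 27.4, 18.1, 47.5 and 36.6 CPM in E-cadLO. It was lower in each mouse by -0.64 to -0.39 on the log2 scale, although the groups overlapped, and its log2 fold change with the block was -0.53 ± 0.16 (edgeR, adjusted p = 0.177). Snw1, the most abundant of this role at a mean of 131 CPM, had a log2 fold change of -0.26 ± 0.16 (edgeR with the block, adjusted p = 0.390).

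Of the 12 genes of endocytosis and turnover, 11 were tested, and 4 of them were higher in 4 of 4 mice and 0 lower. Over all genes tested the shares were 16.8 and 14.2%. Neurl1a, a ubiquitin ligase, had the largest value, 1.89 ± 0.88 (edgeR with the block, adjusted p = 0.280), and was listed with 0 counts in E-cadHI of mouse 57. Itch, a ubiquitin ligase that acts on Notch and the most abundant of this role, was at 57.6 to 99.6 CPM in E-cadHI and 84.9 to 95.7 CPM in E-cadLO. None of the other ligands, Dll3, Dll4, Dlk1 and Dlk2, passed the filter, and they had at most 17, 10, 8 and 46 counts in a library.

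**Figure D3:**
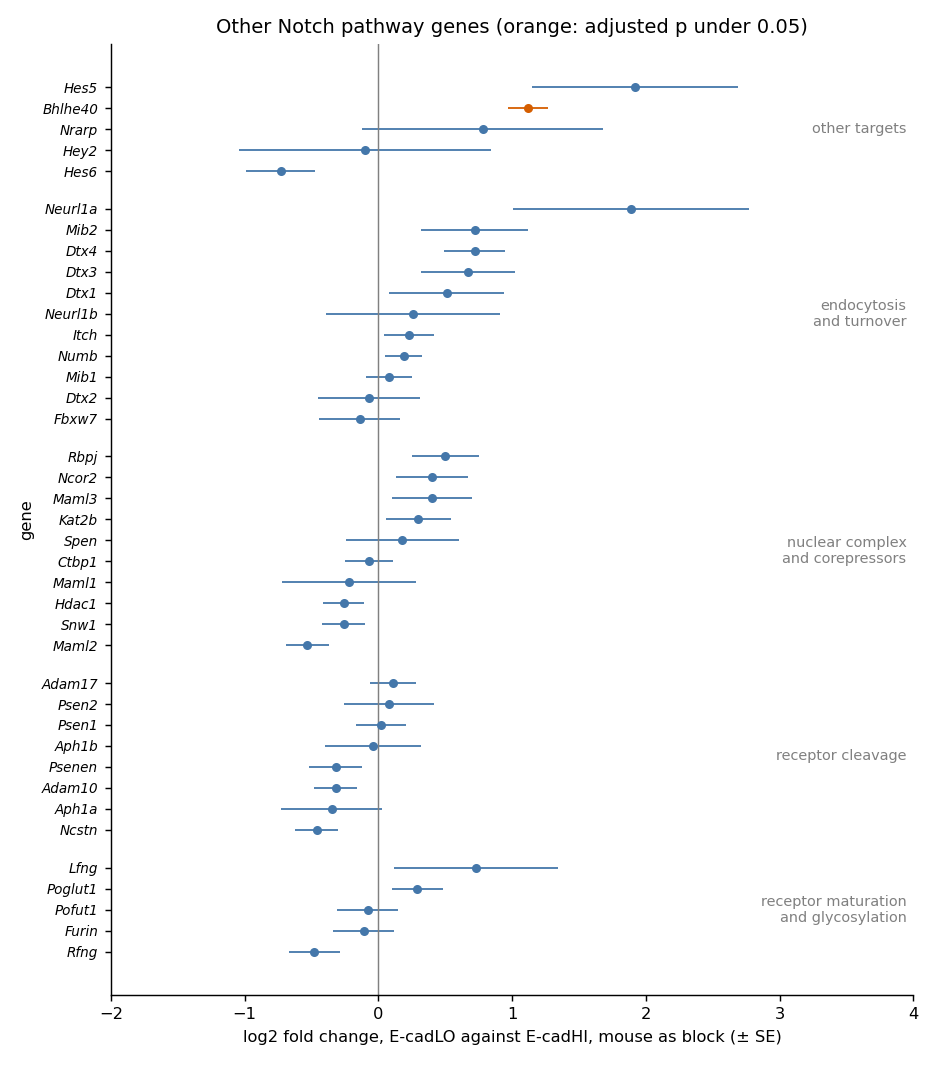
Points give the edgeR log2 fold change of E-cadLO against E-cadHI with the mouse as a block, and lines its SE, for the 39 tested genes of the pathway beyond the 10, grouped by role on the vertical axis. Bhlhe40, in orange, is the gene that passed the adjusted threshold (1.12 ± 0.15), and the genes with larger values, Hes5 and Neurl1a, have wider errors.

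Markers of other cell types moved with the gate. In these bulk libraries, more cells of a type and more RNA per cell cannot be told apart, nor can fewer cells and less RNA per cell. All 10 microglia and macrophage markers were higher in E-cadLO in 4 of 4 mice, as were 16.8% of all genes tested. Of these markers, 4 passed the test with the block, where 0.728% of all genes tested were called higher. Their summed level was 33.5 to 213 CPM in E-cadHI and 198 to 787 CPM in E-cadLO. With the block, 3 of 8 astrocyte markers, 2 of 8 oligodendrocyte lineage markers and 1 of 8 neuron markers rose as well, and the neuron sum was 3.70 to 92.5 CPM in E-cadHI and 24.9 to 376 CPM in E-cadLO. The oligodendrocyte lineage sum was 226 to 8212 CPM in E-cadHI and 1250.1 to 33787 CPM in E-cadLO, highest in mouse 70 in both gates. Mbp and Mobp gave most of it, at 156 and 65.1 CPM in E-cadHI of mouse 57 and 20113 and 11677 CPM in E-cadLO of mouse 70. The 8 tumor epithelium markers, none of which passed the test, summed to 6985 to 9605 CPM in E-cadHI and 5234 to 13570.4 CPM in E-cadLO. The 6 neutrophil markers summed to 25.8 CPM or less and the 8 T and B lymphocyte markers to 6.50 CPM or less in every library. Of the neutrophil markers 2 were tested and neither passed, and no lymphocyte marker passed the filter on low counts, so none was tested.

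The E-cadLO library of mouse 57, which held the extreme values of Jag1, Notch2 and Hey1, also stood apart in fibroblast markers, among other lists. Their summed level was 1148 CPM there, against 15.5 to 45.8 CPM in the other E-cadLO libraries and 6.32 to 20.5 CPM in E-cadHI. Col1a1, the main fibrillar collagen, was at 497 CPM in that library and at 8.53 CPM or less in the other 7, and Dpt, the fibroblast gene dermatopontin, was at 112 CPM in that library and at 0 in the others. Pdgfrb, the receptor of mural cells and fibroblasts, was at 147 CPM in that library and at 5.65 CPM or less elsewhere. The epithelial marker Epcam, which had the largest change of its list, was at 290.2 CPM there and at 792 CPM or more in the other 7 libraries. Krt8, Krt18, Krt19, Cldn4 and Cldn7 were also lower in E-cadLO than in E-cadHI of mouse 57. Esrp1 and Elf3 did not follow, at 109.8 and 48.3 CPM in E-cadHI and 102 and 50.7 CPM in E-cadLO of that mouse. The part of fibroblast-type RNA in the values of mouse 57 was not tested. In mice 67 and 70, where Jag1 was 3.33-fold and 2.21-fold higher in E-cadLO, the fibroblast sum was also higher in E-cadLO. The sum was 15.5 and 45.8 CPM in E-cadLO against 6.32 and 20.5 CPM in E-cadHI. Whether fibroblast-type RNA had a part in the Jag1 values of mice 67 and 70 was not tested.

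**Figure D4:**
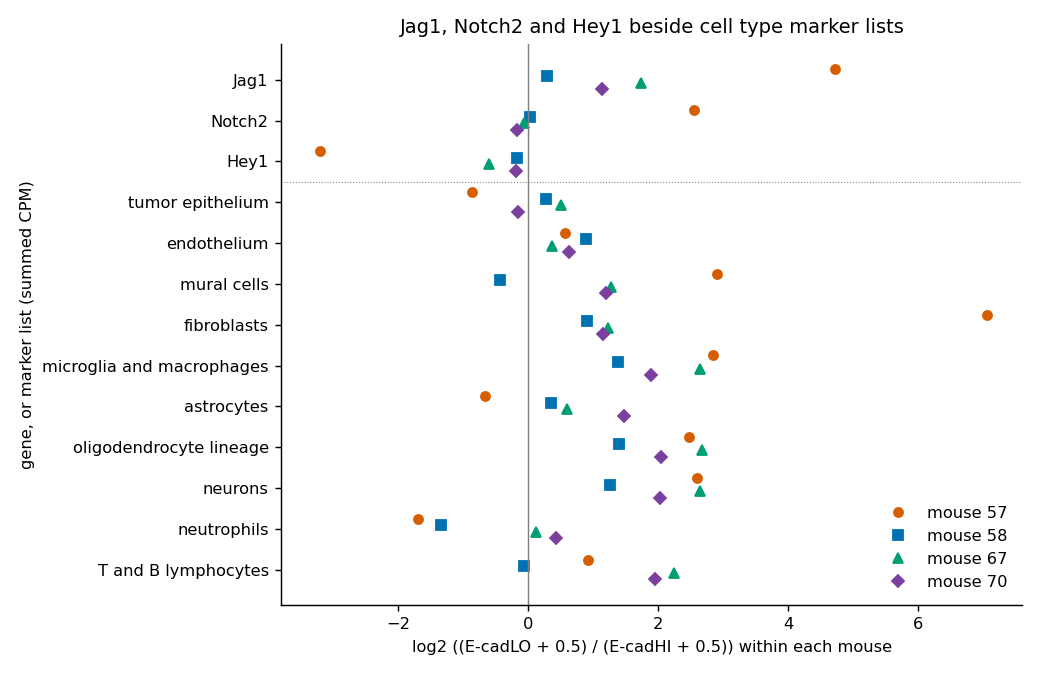
Points give the log2 ratio of E-cadLO to E-cadHI within each mouse for Jag1, Notch2 and Hey1, above the dotted line, and for the summed CPM of each marker list, below it. Mouse 57 is the extreme for the 3 genes, the highest for fibroblasts, mural cells and microglia, and the lowest for tumor epithelium, astrocytes and neutrophils. Its astrocyte value follows 1 gene, Aldoc, at 1005 CPM in E-cadHI and 124 CPM in E-cadLO of that mouse. Of the 8 astrocyte markers, 5 were higher in E-cadLO in 4 of 4 mice, against 16.8% of all genes tested. The fibroblast, microglia, oligodendrocyte lineage, neuron and endothelium lists lie above 0 in each mouse.

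The genes whose profile over the 8 libraries was nearest to each member were found by the root mean square (RMS) difference of log2(CPM + 0.5) after centering each gene on its mean. For Jag1 these were Gm28875 (RMS difference 0.26), F730043M19Rik (0.40) and Igfbp7 (0.42), of which the former pair are noncoding RNA genes on another chromosome. Igfbp7, a secreted protein of vessels and stroma, was at 23.7 CPM in E-cadLO of mouse 57 and at 0.0697 to 3.97 CPM elsewhere. For Hey1 they were Csn2, Ednra and Ppfibp2 (0.26, 0.26 and 0.29). Csn2, which encodes the milk protein beta-casein, was at 3194, 2006, 5893 and 2572 CPM in E-cadHI and at 355, 1724, 2589 and 1689 CPM in E-cadLO of mice 57, 58, 67 and 70, lower in E-cadLO in each mouse. For Notch2 they were Ugcg, Cdk6 and Rai14 (0.19, 0.21 and 0.27). Cdk6, a kinase of the G1 phase, was at 159.8 CPM in E-cadLO of mouse 57 and at 28.3 to 60.2 CPM in the other 7 libraries. The nearest to Hes1 were Ubtd2, Itgb1 and F11r (0.22, 0.22 and 0.24), and the nearest to Notch3 was Slc35f1 (0.12), with Pcsk6 and Pcdh1 after it (0.18 each). Notch1 was nearest to Xylt2 (0.16), Dll1 to Tiam1 (0.22), Jag2 to Gm10516 (0.24) and Notch4 to Sipa1l3 (0.20). These profiles share the libraries and their makeup of cells, and likeness is given as a description.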

How the data were processed

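Per the labels and the study's methods, mRNA libraries from 4 E-cadHI and 4 E-cadLO samples were sequenced as single reads, mapped with HISAT2 2.1.0 to GRCm38 and counted per gene. The methods name Icount and the submitters' processing notes HTSeq for this step, and whether strand was used was not stated. The deposited values are raw counts, and the authors pooled no replicates. Of 32259 entries, 365 without an identifier were left out (0.0636 to 0.0954% of counts).

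Tests used edgeR 4.0.16 in R 4.3.3 with TMM scaling, filterByExpr by group, the quasi-likelihood test and Benjamini-Hochberg adjustment, without and with the mouse as a block. DESeq2 1.42.0, other filters and size factors, and each mouse left out were alternatives. The scripts were tested on simulated data. Same-numbered libraries came from the same mouse, and their deviations from the group means correlated at 0.248 to 0.692. No 2 libraries agreed within sampling noise. Replicates are mice. Exonic lengths came from GENCODE M21 on the same build, in which 31749 of 31894 identifiers were found.

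The members and all lists, including the 10 marker lists and the motifs, were chosen with earlier results of these data known. Named genes were the 10 members and genes drawn from these: in each other pathway role and marker list the most abundant gene, the gene with the largest change and any that passed; and the 3 genes nearest in profile to each tested member. Cdh1, Dtx4, Dpt, Abcc9, Krt8, Krt19, Cldn4, Cldn7, Esrp1 and Elf3 were named after their values were seen. The smallest exact p over 4 mice is 0.13.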

Additional observations from a re-analysis of the deposited data

Results flagged for a closer look

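Of 30 groups of 4 values for the 10 genes (the CPM in each gate and the ratio within a mouse), 3 held a value whose gap to the other 3 exceeded Dixon's 95% critical value, where chance gives about 1 in 20. All 3 came from mouse 57: the Notch2 level of 161 CPM in E-cadLO, the Notch2 log2 ratio of 2.55 and the Hey1 log2 ratio of -3.20. Ratios are computed from the levels, so the groups are not independent, and both Notch2 flags rest on the same library. The E-cadLO library of that mouse was also the one with 1148 CPM of fibroblast markers, and its part in these values was not tested. The Jag1 ratio of 4.72 in mouse 57 did not exceed the critical value. Such limits on 4 values are coarse.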

How the results depend on the processing

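The number of genes called, 0 in the main fit, was 99 with the mouse as a block, 359 with DESeq2, 1255 with DESeq2 and the block, 23 with no filter and 3 with at least 10 counts in every library, and stayed 0 with 1 mouse left out. With the block it was 449 without mouse 57, 66 without mouse 58, 0 without mouse 67 and 2 without mouse 70, where fewer mice also leave fewer residual degrees of freedom. Members called went from 0 to 1 (Jag1) with DESeq2 and to 1 with DESeq2 and the block, and stayed at 0 otherwise, with 1 mouse left out too. The other pathway genes called were 1 with the block, 1 with DESeq2, and 2 with DESeq2 and the block (Bhlhe40 and, named after its values were seen, Dtx4), and 0 to 1 with a mouse left out. The median of the tested members, 0.19, was 0.50 with no filter, where Heyl entered, and 0.13 to 0.45 with a mouse left out (0.02 to 0.41 with the block). Dll1, at 0.01, turned negative with the block (-0.13) and with DESeq2 and the block (-0.11), and ran from -0.35 to 0.34 with a mouse left out (-0.45 to 0.30 with the block, -0.22 without mouse 67). Hes1, at -0.09, was 0.01 with DESeq2 and the block and ran from -0.32 to 0.13 with a mouse left out (-0.28 to 0.21 with the block, 0.07 without mouse 67). Notch1 ran from -0.18 to 0.35 and Notch2 from -0.10 to 1.16 with a mouse left out. The causes were not tested. No further log2 fold change reversed, and the block changed no call among the members. Adding 2 CPM in place of 0.5, or median-of-ratios size factors, moved each mean ratio within a mouse by less than its SD, which was wide: with 2 CPM added, the mean log2 ratio went from 0.91 to 0.41 for Jag2, from 0.73 to 0.33 for Notch4 and from 0.58 to 0.34 for Heyl.

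Depth limits Jag2, Notch4 and Heyl, which lie near the floor of 3 counts in several libraries.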
